A study of Mus musculus with 8 samples.

Results

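Matricellular proteins are secreted into the extracellular matrix without being its main load-bearing fibres. They bind collagens, growth factors and cell surface receptors, and so tune how strongly cells hold on to the matrix. Fibronectin is counted here with them, because many of them bind it or compete with it for integrins on the cell surface. According to the paper, stromal cells of lymphoid organs deposit extracellular matrix, which serves lymphocytes as a scaffold for adhesion and movement.

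The genes described were chosen by symbol, as a fixed list of 10 matricellular genes and fibronectin that was matched to the first column of the deposited table. All 10 had a row among its 12589 rows. They comprise fibronectin (Fn1), tenascin C (Tnc), periostin (Postn), osteonectin (Sparc), osteopontin (Spp1), thrombospondins (Thbs1, Thbs2 and Thbs3) and the CCN family genes Nov and Wisp2, which the current annotation names Ccn3 and Ccn5.

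The RNA-seq was made on mSSC-YFP, a mouse spleen-derived stromal cell line that carries a yellow fluorescent protein, so that every sample came from the same immortalized line. Of the 8 samples, 4 were treated with BMS493, which inhibits retinoic acid signaling, and 4 with the vehicle DMSO, for 48 h according to the labels. All were grown in medium with fetal bovine serum. Nothing in the labels says whether the 4 samples of a group were separate cultures.

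The deposited table gives each gene 1 mean of log2 normalized expression. Its header does not name the samples averaged, and the mean was read as one over all samples of both treatments. Values of single samples were not analysed here, so the spread between samples is not known, and of depth the study's methods give an average per sample but no value for a single library. None of the values below carries an SD. The 4 columns of the authors' own comparison were not used, and the difference between BMS493 and DMSO is therefore not given for any gene. What follows describes how strongly the 10 genes were expressed in these stromal cells on average, which of them lay close together, and which features their coding sequences share.

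Summed over all genes, 2 raised to this mean gave 989369. The table does not state the scale of the normalization. Long genes collect more reads at the same number of transcripts. Levels of different genes were therefore compared per kb, by subtracting log2 of the summed length of all exons of the gene in kb. A percentile is the share of the 12364 genes with a known length that lay at or under the gene. Genes without a row are not among them, and why a gene has no row is not stated. Percentiles, ranks and medians of all genes therefore refer to genes of the table and not to the whole genome.

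Fn1, Sparc and Thbs1 were the highest of the 10 genes, and each was in the uppermost 1% of the genes in the table. Fn1, which encodes the fibril-forming glycoprotein that links collagen to cell surface integrins, had a mean log2 level of 13.08 in the authors' column and of 9.53 per kb. That was percentile 99.8, and rank 25 of all genes per kb. Without division by length it was rank 2 of all genes. Sparc, whose product binds collagen and calcium and takes part in collagen fibril assembly, had an authors' mean of 11.41 and a level of 9.49 per kb, at rank 26. Thbs1, which encodes a trimeric protein that binds CD47 and can activate latent TGF-β, had an authors' mean of 11.89 and a level of 9.28 per kb, at rank 31. The 3 genes lay within 0.24 of each other on the log2 scale per kb, and together they made up 88.4% of the summed linear level per kb of the 10 genes. Their own order turned with the length used. Fn1 minus Sparc was 0.04 per kb of all exons and -0.19 per kb of the longest transcript.

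Tnc followed at 7.26 per kb (authors' mean 10.22). Its product is a large hexameric protein known for weakening the adhesion of cells to fibronectin. The level was percentile 98.0 of all genes, and the step from Thbs1 down to Tnc was 4.07-fold. Spp1, Postn and Thbs2 formed a middle group. Spp1 encodes a phosphorylated, acidic protein that binds integrins and CD44, and had 5.62 per kb (authors' mean 6.34, percentile 91.7). Postn, which encodes a fasciclin-domain protein that binds tenascin C and collagen, had 5.12 per kb (authors' mean 8.24, percentile 87.8). For Thbs2, a trimeric relative of Thbs1, the level was 4.96 per kb (authors' mean 7.77, percentile 86.0). With no spread between samples at hand it could not be tested whether neighbours in this group differ. The place of Spp1 above Postn rested on length: per kb of all exons it was higher by 0.50, but with the longest transcript it was lower, at -0.11.

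Thbs3, Wisp2 and Nov were the lowest. Thbs3, a thrombospondin that forms pentamers, stood at 1.92 per kb (authors' mean 4.19), at percentile 32.1 and so below the median of all genes, 2.85. Wisp2, a CCN family gene whose product lacks the C-terminal cysteine knot of the other members, had -0.21 per kb (authors' mean 0.74). Nov, which encodes a complete CCN protein, had -0.31 per kb (authors' mean 1.21). These were percentiles 9.71 and 9.0 per kb, where the lowest level of all genes was -4.43. Without division by length they were at percentiles 5.08 and 8.01, and the lowest authors' mean of the table was -0.58. Whether a prior count was added before logs were taken is not stated, and such a count would raise low means most, so the levels of Wisp2 and Nov are the least certain. From Fn1 to Nov the level per kb of all exons spanned 917-fold. Fn1 was 533-fold above Nov per kb of the longest coding sequence and 1288-fold per kb of the longest transcript. These 2 values are not the full range of the set, because Sparc was then the highest gene. Sparc had 11.42 per kb of the longest coding sequence against 10.18 for Fn1, and 10.21 per kb of the longest transcript against 10.02.

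**Figure D1:**
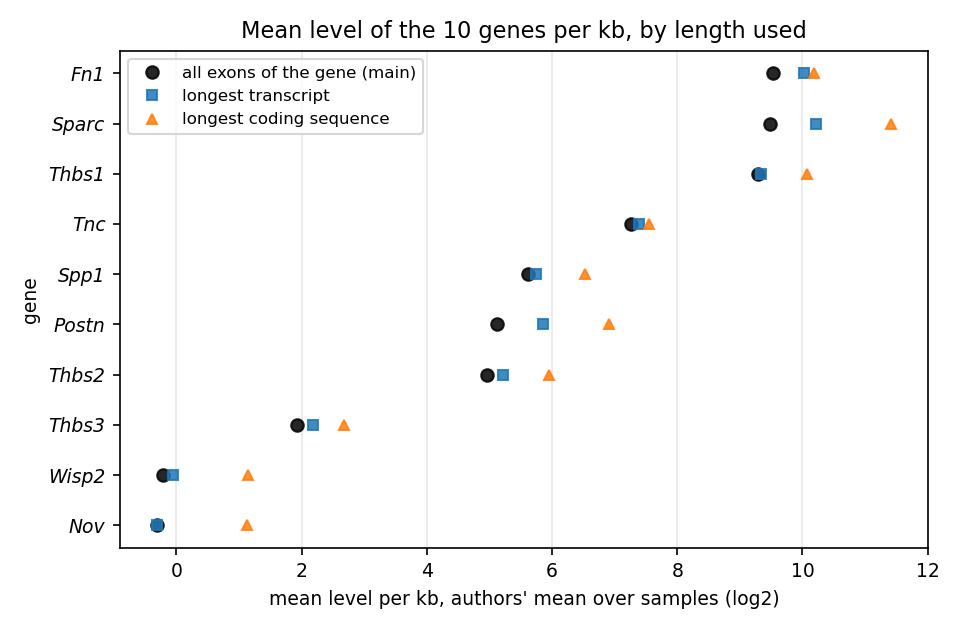
Mean level per kb of the 10 genes on the log2 scale (horizontal axis), 1 row per gene in the order of the main values. Black circles divide by all exons of the gene, blue squares by the longest transcript and orange triangles by the longest coding sequence; there are no error bars because values of single samples were not analysed here. Fn1, Sparc and Thbs1 lie highest and Wisp2 and Nov lowest with each length, while Fn1 and Sparc, and Spp1 and Postn, trade places.

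Placed among all genes with a length, the set ran from -0.31 to 9.53 per kb, against -4.43 to 11.93 for all genes. Of the 10 genes, 5 were at percentile 90 or above and 3 were below the median, and the median level of the set was 5.37 per kb against 2.85 over all genes. Which genes passed percentile 90 depended on the length used. Spp1 was at 89.6 with the longest transcript and at 76.6 with no division by length. Postn was at 90.6 and 96.0 with these settings, and Thbs2 was at 93.4 with no division by length. In the authors' unit without division by length, the 10 genes together took 1.71% of the summed linear level of all genes, of which Fn1 alone took 0.872%, Thbs1 0.383% and Sparc 0.275%. Per kb their joint share was 0.847%.

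**Figure D2:**
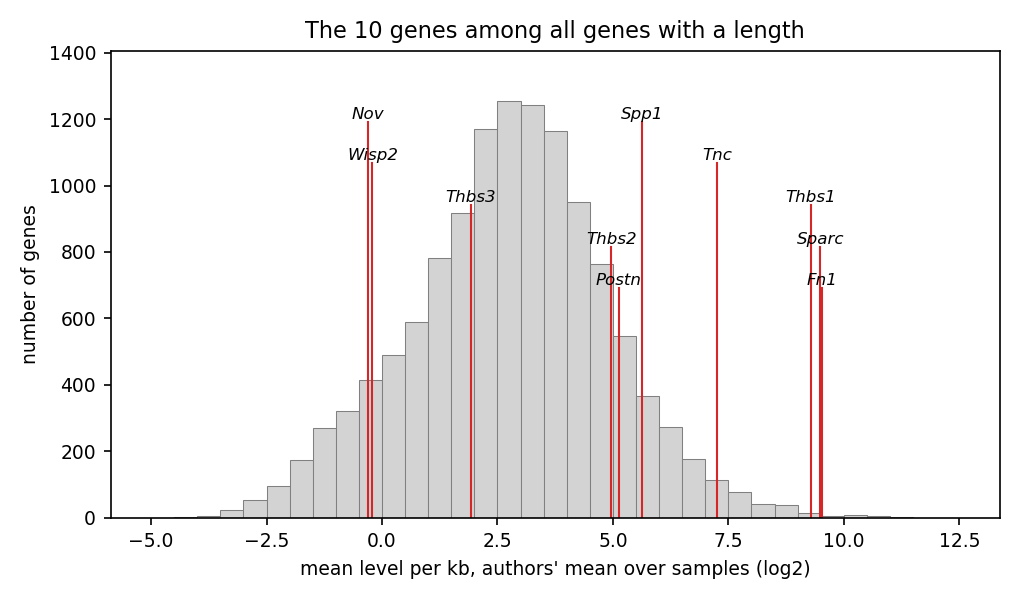
Histogram of the level per kb (horizontal axis, log2) of the 12364 genes with a known length; the vertical axis is the number of genes in bins of 0.5. Red lines mark the 10 genes, with Fn1, Sparc and Thbs1 in the far upper tail between 9.28 and 9.53, and Nov and Wisp2 in the lower tail.

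The thrombospondins were graded. Thbs1 was 20.0-fold above Thbs2 per kb, and Thbs2 in turn 8.23-fold above Thbs3. Thbs1 and Thbs2 encode proteins of the same build, trimers with type I repeats, whereas the pentameric Thbs3 lacks them. The longest stretch of identical bases between the coding sequences of Thbs1 and Thbs2 was 26 bases, and no pair among the 10 genes shared a longer one. According to the study's methods only uniquely mapped reads were counted. Untranslated and nearly identical stretches were not compared, and how reads were divided between the paralogs was not tested.

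Some of the genes share a feature of their coding sequence. The tripeptide arginine-glycine-aspartate is the classical contact of fibronectin with integrins. Codons for it were searched in frame in the longest coding sequence of each gene in GENCODE M21 on GRCm38. Such codons were found in 4 of the 10 genes, against 8.98% of the 10919 coding genes of the table that could be searched. A longer sequence offers more places for the tripeptide, and length was not taken into account. The 4 genes have 2477 (Fn1), 1172 (Thbs2), 1171 (Thbs1) and 295 codons (Spp1), and Thbs1 and Thbs2 are paralogs. Each of the sites found is printed below as the coding strand, 5′ to 3′, with the 9 bases of the 3 codons in capitals and 12 bases on either side, because this tripeptide is the best known integrin-binding motif.
Fn1, first site: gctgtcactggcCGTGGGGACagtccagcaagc
Fn1, second site: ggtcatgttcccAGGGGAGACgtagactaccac
Spp1: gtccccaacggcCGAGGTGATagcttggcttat
Thbs1: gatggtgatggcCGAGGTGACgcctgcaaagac
Thbs2: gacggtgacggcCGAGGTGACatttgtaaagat

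The coordinates are those of the whole printed stretches of 33 bases, and the codon numbers are those of the first codon in capitals. The first Fn1 stretch, with codon 1614, lies in exon 30 of its transcript, on the minus strand of chr1:71606734-71606766. The second, with codon 2181, lies in exon 40, at chr1:71597431-71597463. The Spp1 stretch, with codon 145, lies in exon 7, on the plus strand of chr5:104439469-104439501. The stretches of Thbs1 and Thbs2, with codons 927 and 928, each begin in exon 17 and end in the next exon. Their outer ends are chr2:118122677-118122902 on the plus strand and chr17:14671472-14673147 on the minus strand. Thbs1 and Thbs2 thus carry the codons at nearly the same position, and the 9 bases themselves are the same in both. In Sparc, Tnc, Postn, Thbs3, Nov and Wisp2 no such codons were found in the coding sequence searched. A match is a description of the sequence and does not show that the site is used.

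The same coding sequences differed in composition. In Spp1, codons for aspartate and glutamate were 23.1% of all codons, at percentile 99.2 of the genes searched, whose median was 11.9%. Sparc came next with 16.9%. Cysteine codons set the CCN genes apart, with 11.6% in Wisp2 and 11.3% in Nov against a median of 1.89%. CCN proteins are known for their many disulfide bonds. Thbs1, Thbs2, Sparc and Thbs3 had between 5.13% and 5.98%. Spp1 had 0.678% and Postn 1.43%, both below the median.

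All 10 genes are protein-coding, and they are spread over 8 chromosomes of GRCm38. Fn1 lies on the minus strand of chr1:71585520-71653200 and has 17 annotated transcripts, over which a count per gene is summed, so that its alternatively spliced exons cannot be told apart here. Sparc is on chr11:55394500-55423183 and Tnc on chr4:63959785-64047015, both on the minus strand. Thbs1 (chr2:118111876-118127133) shares chromosome 2 with Wisp2 (chr2:163820861-163833146), and Thbs3 (chr3:89215180-89226837) shares chromosome 3 with Postn (chr3:54361109-54391037). Spp1 is on chr5:104435118-104441050, Thbs2 on chr17:14665500-14694235 and Nov on chr15:54745702-54754039. Exons of 5 of the 10 genes overlap another annotated gene. In Spp1 the overlap with Gm42793 on the same strand covers 18.8% of the exon bases. How the authors counted reads from there is not stated, nor whether their annotation held Gm42793. For Thbs3 the overlap is with Mtx1 on the other strand, over 6.59%. In Fn1, Thbs1 and Tnc it is with non-coding genes on the other strand, over 2.50%, 3.42% and 2.26%. The libraries were stranded, but whether strand was used in counting is not stated.

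Of 20 further matricellular genes that were listed, 9 had a row. The highest of them were Cyr61 at 8.93 per kb, Ctgf at 7.71 and Wisp1 at 6.07, all CCN family members, and these 3 were the ones at percentile 90 or above. With Nov and Wisp2 included, the CCN genes of these cells thus ran from percentile 9.0 to 99.6. Tgfbi, a fasciclin-domain relative of Postn, had 3.82 per kb. The Sparc relatives Smoc2 (0.59), Smoc1 (0.01), Spock2 (-0.53) and Sparcl1 (-1.14) were all below the median of all genes, whereas Sparc itself was at percentile 99.8. Summed on the linear scale per kb, the 10 genes came to 3.01 times the level of the 9 others.

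Of 20 receptors and binding partners that were listed, 15 had a row. Calr, a thrombospondin partner at the cell surface and otherwise a chaperone of the endoplasmic reticulum, was highest at 8.83 per kb. The integrin chain Itgb1 had 8.38 and Lrp1, an endocytic receptor for thrombospondins, had 7.06. Itga5, which pairs with Itgb1 to form the main fibronectin receptor, had 5.42 (percentile 90.2). Itgav, whose pairs bind the arginine-glycine-aspartate sites of fibronectin and osteopontin, had 4.71. Of its listed partners other than Itgb1 (8.38), Itgb5 had 5.64, Itgb3 2.50 and Itgb8 -0.04. The osteopontin receptor Cd44 had 6.01 and the Thbs1 receptor Cd47 had 3.62. Notch1 was low, at 1.02. For Cd36, Itga4, Itga8, Itga9 and Stab1 no row was found.

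**Figure D3:**
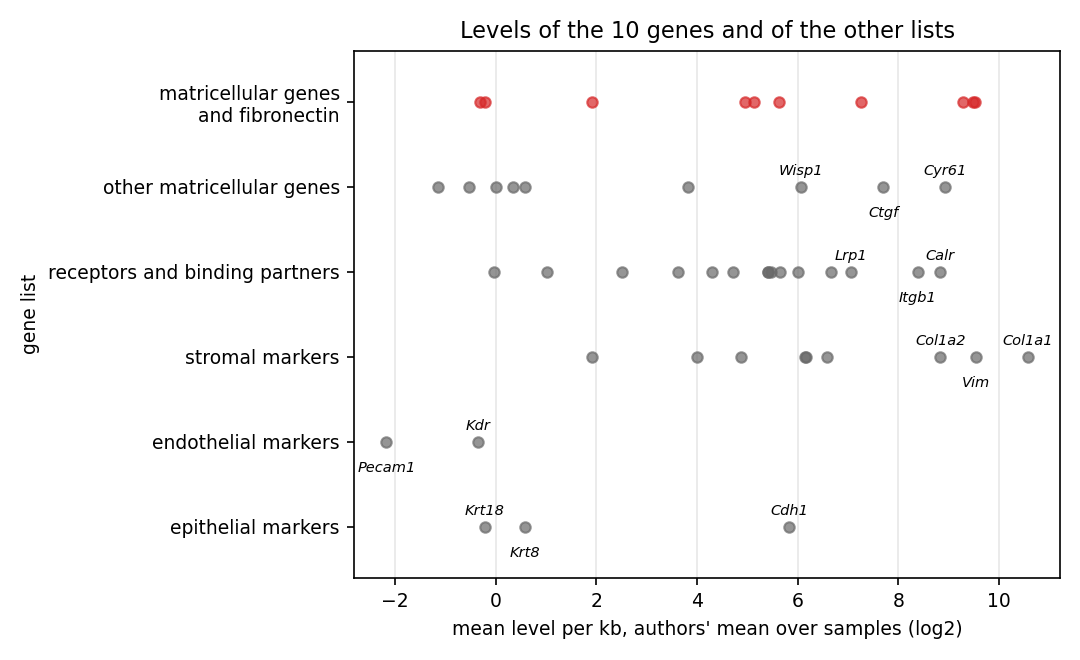
Level per kb (horizontal axis, log2) of each gene with a row, 1 point per gene and 1 line per list; the 3 highest genes of each list other than the red one are named. The 10 genes (red) reach the level of the stromal markers Col1a2 and Vim at the top, and both endothelial markers lie under 0.

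The labelled cell type was checked against markers. Of 10 stromal markers 9 had a row, led by Col1a1 at 10.57, Vim at 9.54 and Col1a2 at 8.84 per kb. Fn1 and Sparc were thus as high as Vim, and Lum had no row. Pdgfra, a marker of fibroblast-like stroma, was the lowest at 1.92, percentile 32.0. Without division by length it was at percentile 55.1 (authors' mean 5.24). The leukocyte markers Ptprc, Cd3e, Adgre1 and Itgam had no row either. Of 5 endothelial markers, Kdr (-0.34) and Pecam1 (-2.17) had low levels and the 3 others, Cdh5 among them, had no row. Of 5 epithelial markers, Epcam and Krt5 had no row, and Krt8 (0.58) and Krt18 (-0.21) were low. Cdh1, which encodes E-cadherin, stood at 5.83 per kb, percentile 93.0. Its part in the levels given was not tested.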

How the data were processed

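RNA-seq of 8 samples of mSSC-YFP was deposited as 1 table. According to the paper's methods and the labels, the authors aligned reads with STAR 2.3.0e to mm10 (GRCm38), made gene counts from reads with a single mapping position (Rsubread, Ensembl annotation) and normalized these counts with the TMM method. The extract protocol in the labels describes array and qPCR preparation. According to the paper's methods the RNA-seq libraries came from a stranded mRNA kit. The value used is the authors' mean log2 normalized expression, written with decimal commas. The other 4 columns hold the authors' own comparison (log2 fold change, t, p-value and adjusted p-value) and were not used. No test was therefore made, and a planned test between treatments was not run.

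Symbols were matched to GENCODE M21 (GRCm38), 11765 directly and 599 through an older symbol (RefSeq synonyms and a written list of CCN names), which gave a length for 98.2% of 12589 rows; coordinates are those of GENCODE. The annotation is later than that of the authors. Levels per kb, percentiles and shares were computed in Python 3.11.15 with pandas 2.3.3 and numpy 2.4.6, and coding sequences were read with biopython 1.88 from GENCODE transcripts. Scripts were tested on made-up values with known answers. Named genes are all 10 members and the 3 highest of each list. Others were named after their values were seen. The members and lists were chosen with earlier results of these data known. Alternatives were the longest transcript, no division by length, a mean log2 level of at least 1 and, chosen after seeing the data, the longest coding sequence. Protein sequences were not used here. A listed leukocyte marker is not reported here.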

Additional observations from a re-analysis of the deposited data

How the results depend on the processing

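The median level of the 10 genes was 5.37 per kb of all exons. It was 5.81 per kb of the longest transcript and 6.72 per kb of the longest coding sequence. The median percentile was 89.8 per kb and 94.7 with no division by length. The share of Fn1 in the summed level of the 10 genes was 31.4% per kb, 32.5% with the longest transcript and 50.9% with no division by length. Some neighbours changed order. Fn1 minus Sparc was 0.04 per kb of all exons, but -0.19 with the longest transcript and -1.23 with the longest coding sequence. Spp1 minus Postn was 0.50, but -0.11 with the longest transcript, -0.39 with the longest coding sequence and -1.90 with no division by length. With no division by length, Sparc minus Thbs1 turned from 0.20 to -0.48 and Wisp2 minus Nov from 0.10 to -0.47. These differences follow from the lengths, since the level in the table is the same in each. The alternative by length of the RefSeq protein was not run and the coding sequence stood in for it. Fits with the replicate number as a block, leaving out a sample, and a test without a filter on low values were not run. No paired analysis was possible because values of single samples were not analysed here. The depth of single libraries was not analysed here, so how far it limits the low levels of Wisp2 and Nov cannot be given. Wisp2 is under the minimum mean log2 level of 1 and has no percentile with that filter. Of the other low genes, Nov moved with it from percentile 9.0 to 4.73 and Thbs3 from 32.1 to 27.7.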

Other observations

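In 19 rows of the table the gene symbol had been turned into a date, as spreadsheet programs do with symbols of the March and Sept families, and 2 rows carried the same date. None of the 10 genes was among them. These rows received no length and stand outside the percentiles given per kb.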
